A study of Mus musculus with 768 samples.

Results

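Non-cycling vascular CAF-like cells were the most frequent class of cancer-associated fibroblasts (CAFs) in these tumors, with 436 members among 717 kept wells and 768 wells in all. Each well held 1 sorted cell of a mammary tumor from a 14-week-old mouse of strain FVB/N-Tg(MMTVPyVT)634Mul/J, in which the mouse mammary tumor virus promoter drives the polyoma middle T oncogene in mammary epithelium. Cells were taken without treatment, as live cells negative for EpCAM, CD45, CD31 and NG2, and sequenced by Smart-seq2, a full-length protocol without molecular identifiers. Tumor 1 and tumor 2 each filled 1 plate, in equal parts of the 768 wells, so n = 2 tumors throughout, and a tumor cannot be told apart from its plate. Whether the tumors came from different mice was not given in the sources used here.

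The members were chosen by their expression, in 3 steps. A well was kept with at least 10000 endogenous reads and at least 1000 detected genes. The vascular score V was the mean log2(RPKM + 1) of *Rgs5*, *Higd1b*, *Kcnj8*, *Rgs4*, *Abcc9* and *Gja4*, and the matrix score M that of *Dcn*, *Lum*, *Mfap5*, *Olfml3*, *Smoc2* and *Serpinf1*. The cycling score C used *Top2a*, *Birc5*, *Cdk1*, *Ccna2*, *Ccnb2* and *Mki67*. Members had V of at least 4, V above M and C below 2. They were described against mCAF-like wells (matrix CAF-like, M of at least 4 and above V), of which there were 96 in tumor 1 and 90 in tumor 2. Further wells were cycling vascular CAF-like (60), in no class (35) or not kept (13 in tumor 1 and 38 in tumor 2). Since wells of both classes were selected on these values, their difference is a description and carries no p-value, and neither do the values of the other genes measured in the same cells.

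Mural cells, the pericytes and smooth muscle cells that wrap blood vessels, are recruited by endothelial PDGF-B acting on the receptor PDGFRB. They share the vascular basement membrane with the endothelium, and they set vessel tone through G protein-coupled receptors, ion channels and a contractile actin-myosin apparatus. Notch signals from the endothelium, received mainly by NOTCH3, help to keep the mural state. Matrix fibroblasts instead build interstitial collagen and elastic fibers.

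Among the kept wells, 62.5% were members in tumor 1 and 59% in tumor 2, a mean of 60.7% ± 2.53 (SD, n = 2 tumors). The exact binomial 95% intervals were 57.4 to 67.5% and 53.6 to 64.2%, and cover counting error only. The median V was 9.07 in tumor 1 and 9.49 in tumor 2, against a median M of 1.00 and 0.91. Few wells lay near the limits of V and M. The members nearest above the V limit had V of 4.32, 4.33 and 4.43, and the kept wells with V above M nearest below it had 3.38, 2.51 and 1.74. Along C the cells were continuous, with 1.90, 1.89 and 1.81 in the members nearest below the limit and 2.02, 2.04 and 2.06 in the cycling vascular wells nearest above it, and 63 members had C of 1 to 2 while 17 cycling vascular wells had C of 2 to 3. In 8 members V exceeded M by less than 2, and 10 members had M of at least 4, while 12 mCAF-like wells had V of at least 4. No 2 wells had identical counts.

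**Figure D1:**
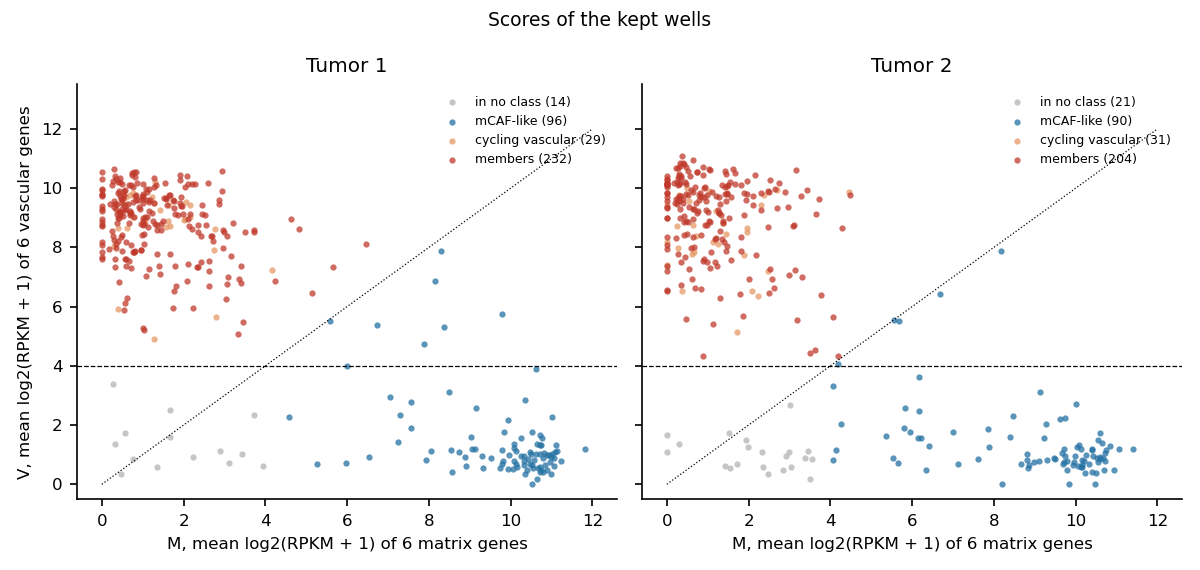
Vascular score V against matrix score M for every kept well of tumor 1 (left) and tumor 2 (right), both as mean log2(RPKM + 1) of 6 genes, with the dashed line at V = 4 and the dotted line at V = M. The members lie in a group at high V and low M, apart from the mCAF-like wells, and a few wells lie along the dotted line.

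Members had fewer reads and fewer genes than mCAF-like cells, and a larger share of spike-in reads. Their median endogenous read number was 197004 in tumor 1 and 188947 in tumor 2, against 262024 and 232394 in mCAF-like cells (ratio 0.78 ± 0.04, SD, n = 2 tumors). The median number of detected genes was 3991 and 4107.5, against 5485 and 5465. ERCC spike-ins, control RNA added to the wells, took a median of 14.8% and 13.1% of the members' reads and 6.83% and 6.30% of the mCAF-like reads. The endogenous reads per ERCC read of the members stood to those of mCAF-like cells in a ratio of 0.434 ± 0.018 (SD, n = 2 tumors). Thinned to 50000 reads, a depth that left out 16 members and 12 mCAF-like cells, members still had fewer genes (medians 3478.5 and 3606.5, against 4610 and 4644). A two-sided exact permutation test on 2 tumors cannot go below p = 0.5, so these are given as values.

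The differences between the classes covered much of the transcriptome. Reads were summed per class and tumor, scaled by TMM and compared within each tumor, and a gene was called when the log2 difference was at least 1 in the same direction in both tumors. The 11713 genes compared had a mean RPKM of 1 or more and were not among the 18 rule genes. Of them, 887 (7.57%) were higher in members and 1217 (10.4%) were lower, the shares beside which the count of every gene list stands. Of all genes compared, 1.29% were at least 16-fold higher and 2.76% at least 16-fold lower in both tumors, and 98 genes were at least 2-fold apart in opposite directions. With the well that held most reads of a gene left out of each of the 4 sums in turn, a check chosen after seeing the data, 734 of the higher and 975 of the lower calls held in every case. Where such a well moved a printed difference by more than 1.5 times, the value without it, or the share of reads it held, is given with the gene. The split between higher and lower depended on the scaling. Per ERCC read, 537 were higher and 2674 lower, and by library totals alone 1156 were higher and 1025 lower. The median of all genes was 0.04 on the log2 scale with TMM, -0.68 per ERCC read and 0.28 (0.275) by library totals, so every difference given here is relative to the bulk of the members' transcripts and not per cell.

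**Figure D2:**
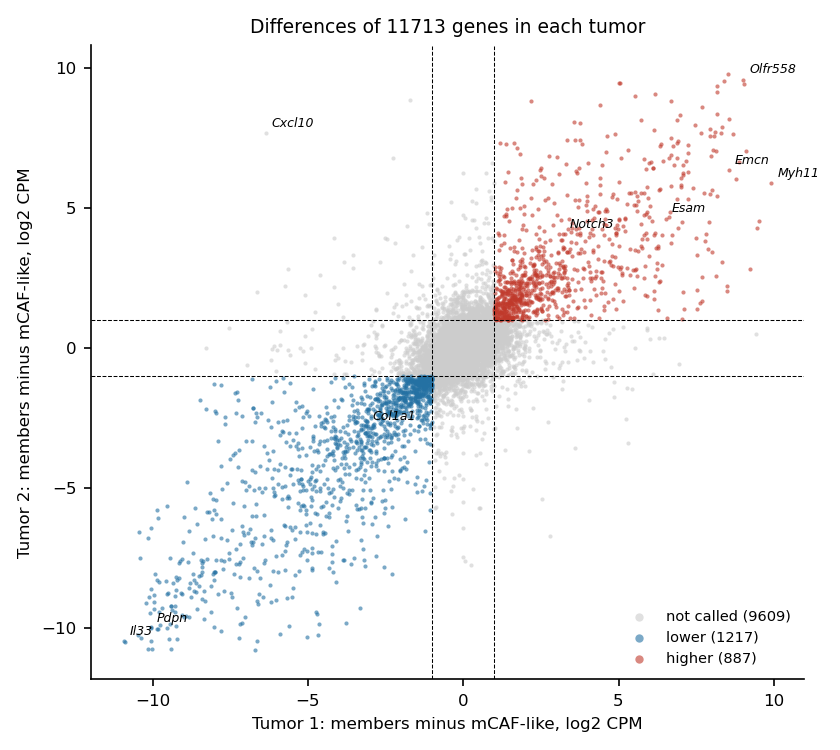
Log2 difference between members and mCAF-like cells for each of 11713 genes in tumor 1 (horizontal) and tumor 2 (vertical), from summed, TMM-scaled counts (log2 CPM), with dashed lines at 2-fold. The 887 genes called higher (red) and the 1217 called lower (blue) lie in the upper right and lower left corners, and *Cxcl10* stands far off on the upper left.

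The class is described here with 16 mural genes outside the rule, a list chosen with earlier results of these data known and so no independent check of the label. Of them, 14 were called higher in members, against 7.57% of all genes, and 0 lower (median log2 difference 3.14, all genes 0.04). Per ERCC read 10 were higher and 1 lower (median 2.41). *Mcam*, an adhesion receptor of pericytes (chromosome 9, 44134658 to 44142727 of GRCm38.p6, the assembly of mm10), had a mean level of 8.98 in tumor 1 and 8.93 in tumor 2 on the log2(RPKM + 1) scale, against 3.23 and 2.95 in mCAF-like cells. It was read in 99.1% and 99% of members. *Notch3* (chromosome 17, 32120820 to 32166896) stood at 6.13 and 6.10 against 1.80 and 1.57, a log2 difference of 3.64 ± 0.59 (SD, n = 2 tumors). *Esam*, a cell adhesion molecule that endothelium also makes, stood at 7.19 and 7.09 against 0.52 and 0.82. The levels of these 3 genes were nearly equal in the members of both tumors.

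*Pdgfrb*, the receptor that recruits mural cells, was read in all 436 members, at 8.64 in tumor 1 and 8.72 in tumor 2. It was also high in mCAF-like cells, at 7.10 and 6.69, so that its log2 difference was 1.05 in tumor 1 and 1.49 in tumor 2. *Cd248*, endosialin, had a similarly small log2 difference of 1.54 and 1.55. *Des*, the muscle intermediate filament desmin, separated the classes more, at 6.78 and 5.49 in members against 0.46 and 0.64. The secreted protein vitronectin, *Vtn*, stood at 6.66 and 5.55 against 0.62 and 0.39. *Itga7*, a laminin receptor subunit of muscle, differed by 5.2 ± 0.08 on the log2 scale and the amine oxidase *Aoc3* by 3.86 ± 1.25 (SD, n = 2 tumors). Without the mCAF-like well with most reads, the differences of *Itga7* were 5.87 and 5.92. Aminopeptidase N, *Anpep*, and the endothelin receptor *Ednra* were not called, with log2 differences of -0.48 and -0.29 and of 0.21 and 0.77.

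*Cspg4* encodes NG2, the surface protein against which the cells had been sorted. Its transcript was read in 83.2% of members of tumor 1 and 90.2% of tumor 2, and in 74% and 77.8% of mCAF-like cells. After thinning to 50000 reads a cell it was 77.9% of members (95% interval 71.9 to 83.1%) and 86.6% (81 to 91.1%), against 47.2% and 63.5% of mCAF-like cells. Its level in members was 3.94 and 4.64, and it was called higher by 1.77 and 1.31 on the log2 scale. The protein was not measured here.

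**Figure D3:**
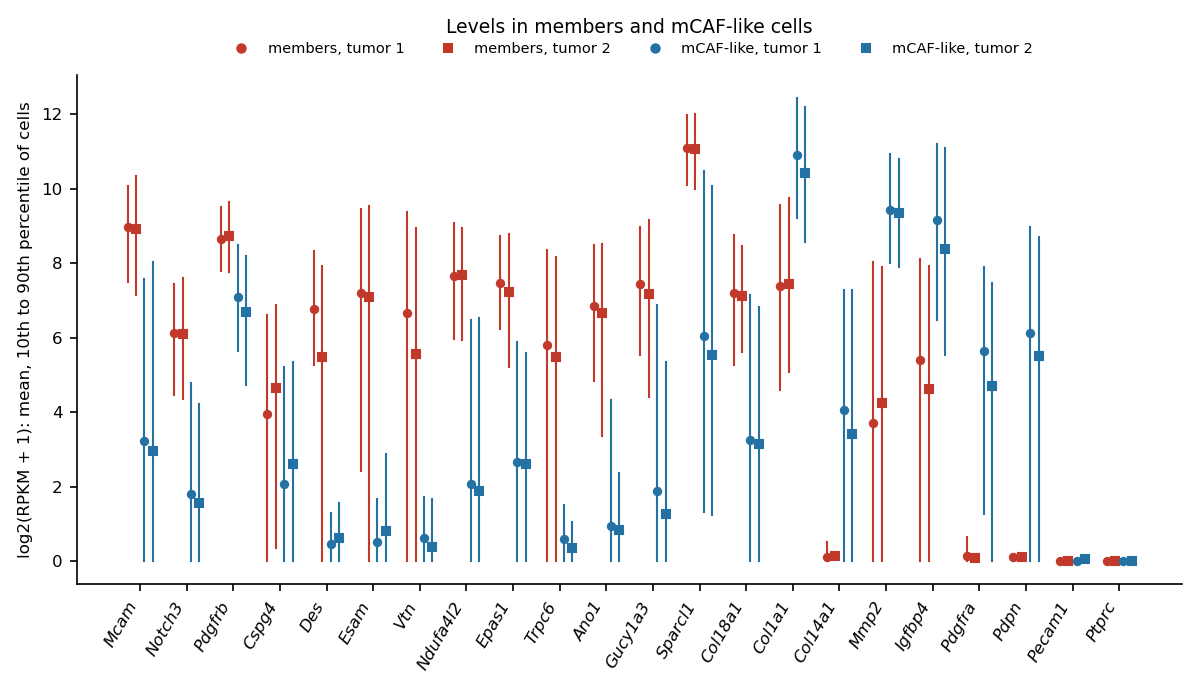
Mean log2(RPKM + 1) of 22 genes in members (red) and mCAF-like cells (blue) of tumor 1 (circles) and tumor 2 (squares), with lines from the 10th to the 90th percentile of the cells. From *Mcam* to *Col18a1* the members lie higher, from *Col1a1* to *Pdpn* the mCAF-like cells do, and *Pecam1* and *Ptprc* lie at or near 0 in both.

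Markers of other cells are given list by list. Few genes of these lists were compared, and several counts are near the 7.57% higher and 10.4% lower of all genes, so that nothing is read from them. *Ptprc* (CD45) had 0 reads in both classes, and *Pecam1* (CD31) had 0 reads in members. With a floor of 3 cells, a count of 0 allows a share of up to 1.33% of the thinned members in tumor 1 and 1.55% in tumor 2. This limits the cells with a read at 50000 reads a cell, not the cells that express the gene. *Epcam* was read in 8 members of tumor 1 and 16 of tumor 2. Of the 12 endothelial genes, *Pecam1*, *Cdh5*, *Tek* and *Cldn5* had no read in members of either tumor, and of the 5 compared 2 were called higher and 2 lower. The list as a whole took 186.44 and 259.17 CPM (counts per 1e+06 endogenous counts) in members and 210.74 and 271.37 CPM in mCAF-like cells. Of 14 epithelial genes 13 were compared, with 0 called higher and 3 lower. Their summed level was 59.4 CPM in members of tumor 1 and 240.2 CPM in tumor 2, against 184.2 and 233.99 CPM in mCAF-like cells, and the part of this in the results was not tested. The 12 immune genes took 2.56 and 9.35 CPM in members and 25.5 and 15.4 CPM in mCAF-like cells, with 0 called higher and 1 lower of 4 compared, and *C1qa* and *Tyrobp* at 0 in both tumors. The 4 hemoglobin genes found in the tables had 0 reads in members. Of 10 Schwann and neural crest genes 4 were compared, with 1 called higher and 1 lower, and *Foxd3*, *Cdh19* and *Gfap* were at 0.

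Some genes of the endothelial and adipocyte lists were read in a large share of members. *Emcn*, endomucin, a sialoglycoprotein best known from venous endothelium, was read in 35.3% of members in tumor 1 and 52.5% in tumor 2. In mCAF-like cells it was read in 5.21% and 3.33%. *Fabp4*, the fatty acid-binding protein of adipocytes and capillaries, reached a mean of 6.70 and 5.92 in members against 0.52 and 0.67. The fatty acid translocase *Cd36* was read in 28.9% of members in tumor 1 and 4.90% in tumor 2, against 5.21% and 5.56% of mCAF-like cells, and 68.4% of the member reads of tumor 2 came from 1 well. The adipocyte genes *Adipoq*, *Lep*, *Cidec* and *Retn* had no read in members, and *Lpl*, lipoprotein lipase, was lower in members by 1.68 and 1.01 on the log2 scale, and by 0.89 in tumor 2 without 1 mCAF-like well, short of the limit. Thus 3 of the 4 adipocyte genes compared were higher (*Fabp4*, *Cd36* and *Pparg*), and 2 were higher and 1 lower per ERCC read. The adipocyte list took 1083 and 715 CPM in members and 1247 and 540.2 CPM in mCAF-like cells.

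The 15 genes with the widest difference among the higher calls, ranked in the tumor where the difference was smaller and with a mean RPKM of at least 10 in members, included 4 receptors. *Olfr558*, an olfactory receptor (G protein-coupled receptor), had 32236 reads in members of tumor 1 and 22678 in tumor 2, against 26 and 12 in mCAF-like cells, a log2 difference of 9.30 ± 0.40 (SD, n = 2 tumors). It was read in 78% and 69.6% of members. A second receptor of that family, *Olfr78*, had 7481 and 4639 reads against 9 and 9, and was read in 22.8% and 20.6% of members. The proton-sensing receptor *Gpr4* had 5748 and 3439 reads against 13 and 5, with 84.6% of the 13 in 1 well. *Fzd4*, a Wnt and norrin receptor, had a log2 difference of 7.24 in each tumor, with 50% of its 4 mCAF-like reads of tumor 2 in 1 well. These 4 receptors were thus read in a part of the members, at high contrast with mCAF-like cells.

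*H2-M9*, a non-classical major histocompatibility gene, had 8796 and 6364 reads in members against 6 and 3. Its relative *H2-M11* had 2821 and 1686 reads against 3 and 0, with 31.5% and 29.9% of the members' reads in 1 well each. Short reads may not separate near-identical members of this family. The epoxide hydrolase *Ephx3* had 8692 and 4212 reads against 9 and 1. *Stac* (1994 and 1389 reads against 1 and 1), *Svopl* (1702 and 1133 against 1 and 1), and the adhesion molecule *Ntm* (1565 and 1007 against 2 and 0) had almost no reads in mCAF-like cells. The adaptor *Grap* had 849 and 1464 reads in members and 0 in mCAF-like cells. With a floor of 3 reads per class and tumor, its log2 difference was at least 6.95 in tumor 1 and at least 7.76 in tumor 2. *2010204K13Rik*, read in 12.1% and 8.33% of members, likewise had 0 reads in mCAF-like cells, a log2 difference of at least 5.49 in each tumor. The ranks used values with the prior count, and at that bound it would rank below calls such as *Cox4i2* (5.93 and 5.74). *Dlk1*, a membrane protein related to Notch ligands, had 4664 and 5890 reads against 3 and 25. *Emcn* and *Myh11* completed the 15, with log2 differences of 8.54 and 6.36 and of 9.91 and 5.88. Of the 45 reads of *Emcn* in mCAF-like cells of tumor 2, 95.6% came from 1 well, which leaves 2 reads in the others.

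Smooth muscle contractile genes were higher as a group but uneven among members. Of 19 genes, 12 were called higher and 0 lower (median 3.27, all genes 0.04), and 12 and 1 per ERCC read (median 2.56). *Myh11*, the heavy chain of smooth muscle myosin, was read in 74.1% of members in tumor 1 and 57.8% in tumor 2, against 6.25% and 15.6% of mCAF-like cells. *Myl9*, the regulatory light chain, had a mean level of 9.19 and 7.61 against 4.74 and 4.46, and its kinase *Mylk* 6.76 and 6.57 against 3.32 and 3.18. *Casq2*, a calcium store protein of muscle, was read in 19.4% and 26.5% of members against 2.08% and 3.33% of mCAF-like cells, where 98% of the reads of tumor 2 came from 1 well. *Myocd*, the cofactor that drives this program, was read in 10.8% and 13.2% of members.

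Several well-known markers of the program were not called. *Acta2*, smooth muscle actin and a common marker of activated fibroblasts, was at 8.93 and 7.88 in members and at 5.79 and 5.86 in mCAF-like cells. Its log2 difference was 2.13 in tumor 1 and 0.95 in tumor 2, so it was not called. *Tagln*, SM22, differed by 0.90 and -0.63, and *Tpm2*, beta-tropomyosin, by 1.31 and 0.42. *Tpm1*, *Cald1* and *Smtn* were likewise not called.

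Within the members, these genes spanned a wide range. On the log2(RPKM + 1) scale *Acta2* had a median of 9.71 in tumor 1 and 8.77 in tumor 2. Its 10th percentile was 3.87 and 1.62 and its 90th was 12 and 11.7. *Tagln* had a median of 7.32 and 5.58, and no read in more than 10% of the members of either tumor. A contractile score was taken as the mean of *Acta2*, *Tagln*, *Myl9*, *Tpm2* and *Myh11*. Its median was 7.24 in tumor 1 and 5.71 in tumor 2, with 10th percentiles of 3.29 and 2.24 and 90th percentiles of 9.63 and 9.28. All 5 genes were read in 61.6% of members of tumor 1 and 40.2% of tumor 2. Cell by cell they moved together, with Spearman correlations of 0.433 to 0.765 among the 10 pairs in tumor 1 and 0.419 to 0.693 in tumor 2, over 436 cells in all. The points share a plate, and the score also followed the ERCC share of the cell, with Spearman correlations of -0.31 and -0.58. With endogenous reads, the measure of depth, they were 0.28 and 0.27, and with detected genes 0.30 and 0.48. The part of RNA content and of depth in these values was not tested. *Pdgfrb* ran the other way, with Spearman correlations with the score of -0.389 in tumor 1 and -0.387 in tumor 2.

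**Figure D4:**
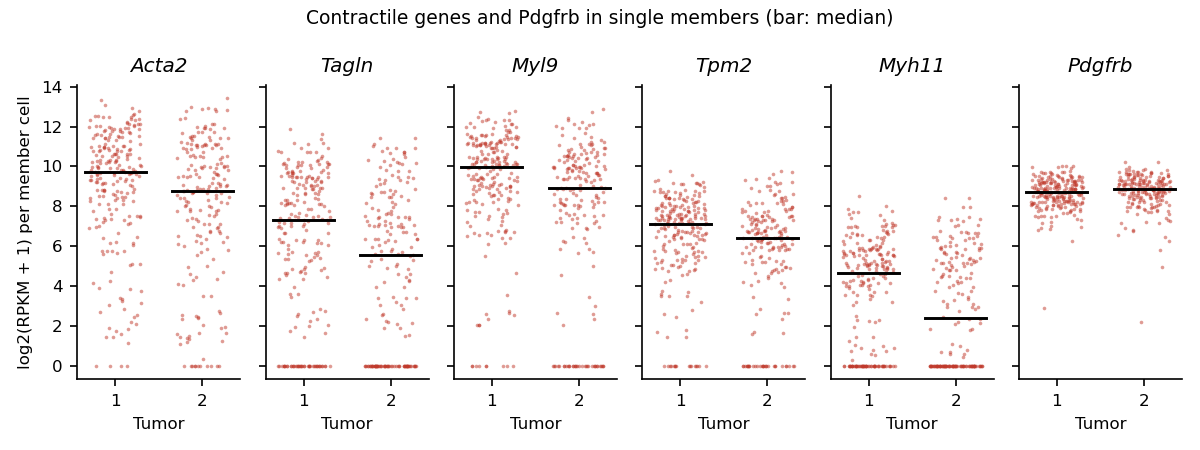
Log2(RPKM + 1) of 5 contractile genes and *Pdgfrb* in each of the 436 member cells of tumors 1 and 2, with bars at the median. The contractile genes run from 0 to above 8, with lower medians in tumor 2, while *Pdgfrb* stays in a narrow band near its medians of 8.72 and 8.89.

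The promoter of *Myl9* is shown for its CArG box, the element bound by serum response factor. The window was the 250 bases before a gene start in RefSeq (GRCm38.p6), and 15 of the 19 contractile genes had an entry. *Tagln* and *Myh11* had none and were not read. An exact CArG consensus (the same on both strands) was in 1 of the 16 promoters read (6.25%), that of *Myl9*. It was in 1.47% of all 32851 promoters and 1.89% of the 848 promoters of genes called higher. Boxes with a mismatch, or outside the window, were not sought, so the other genes may still hold one. The match is a description of these letters. In *Myl9* it is shown in capitals, in the part of the window that lies outside the annotated gene (chr2:156775214-156775407, plus strand).
Myl9: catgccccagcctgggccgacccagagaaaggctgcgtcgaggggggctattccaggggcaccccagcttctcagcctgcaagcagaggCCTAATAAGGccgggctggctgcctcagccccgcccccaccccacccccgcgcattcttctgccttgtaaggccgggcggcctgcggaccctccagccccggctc

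Genes that regulate vessel tone are given in 3 lists. Of 15 receptors for vasoactive agents, 9 were called higher, against 7.57% of all genes, and 2 lower, near the 10.4% of all genes (median 2.86). *Agtr1a*, the angiotensin receptor, had a mean level of 4.72 and 4.47 in members against 0.75 and 0.40, and was read in 75% and 72.5% of them. The endothelin receptor *Ednrb* was read in 27.2% and 28.4% of members against 3.13% and 6.67% of mCAF-like cells, while its relative *Ednra* was high in both classes. The alpha-1 adrenergic receptors *Adra1d* and *Adra1b*, the prostacyclin receptor *Ptgir*, the purine receptors *P2ry14* and *P2rx1* and the adenosine receptor *Adora2a* were also called higher. *P2rx1* and *Adra1b* were rare, with reads in 4.31% and 5.88% and in 9.91% and 13.2% of members. The prostaglandin E2 receptors *Ptger3* and *Ptger4* were lower. *Ptger3* had 1 and 1 reads in members against 549 and 823, and *Ptger4* differed by -5.08 and -6.30 on the log2 scale (-5.67 and -8.11 without the member well with most reads).

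Of 13 ion channels and pumps compared, 8 were called higher and 0 lower. Their median was 3.42 for the mean of the tumors, and 2.20 in tumor 1 and 2.91 in tumor 2 when taken within each. *Trpc6*, a receptor-operated cation channel, had a mean level of 5.80 and 5.48 against 0.60 and 0.36. *Ano1*, the calcium-activated chloride channel, had 6.84 and 6.66 against 0.96 and 0.83, and was read in 97.4% and 95.6% of members. *Atp1b2*, a sodium pump subunit, had 6.84 and 6.50 against 1.52 and 0.74. The potassium channel *Kcnk3* was read in 14.2% and 14.7% of members, and *Cacna1c*, the voltage-gated calcium channel of smooth muscle, was not called, at log2 differences of -0.23 and 0.01. *Kcnj8* and *Abcc9*, which form the vascular ATP-sensitive potassium channel, were part of the rule, at 8.50 and 8.64 and at 7.65 and 8.10 in members.

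Among 17 RGS and G protein signaling genes outside the rule, 8 were called higher and 3 lower (median 1.35), and 5 and 4 per ERCC read (median 0.62). The subunits of soluble guanylyl cyclase, the receptor of nitric oxide, were higher together. *Gucy1a3* had a mean level of 7.43 and 7.18 against 1.88 and 1.27, and *Gucy1b3* of 6.62 and 6.53 against 1.77 and 1.45. *Pde5a*, which degrades cyclic GMP, differed by 2.93 and 2.44 and the kinase *Prkg1* by 1.49 and 1.67 on the log2 scale. *Rgs16* stood at 6.28 and 5.83 against 1.41 and 1.28. *Rgs10*, *Rgs11* and *Rgs12* were lower, the last by 1.02 and 1.10, which lay short of the limit without 1 mCAF-like well (-0.80 in tumor 1, -0.99 in tumor 2).

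Genes of the Notch pathway were called in part, and in both directions. Of 12 compared, 3 were higher (*Notch3*, *Hey2* and *Nrarp*), against 7.57% of all genes, and 2 lower (*Dll1* and *Lfng*), near the 10.4% of all genes. The median of 0.33 turned to -0.40 per ERCC read. The target gene *Hey2* was read in 31.5% and 32.4% of members, against 7.29% and 5.56% of mCAF-like cells (log2 difference 4.62 ± 0.36, SD, n = 2 tumors). Of its mCAF-like reads 71.1% in tumor 1 and 69% in tumor 2 came from 1 well, and without that well the differences were 6.11 and 6.48. *Nrarp*, a feedback inhibitor of the pathway, was read in 49.1% and 32.8% of members against 8.33% and 4.44%. The ligand *Jag1* differed by 1.04 and 0.96 and the target *Heyl* by 0.83 and 1.02, just short of the limit in 1 tumor each. *Hes1* was not called, at 5.06 and 3.86 in members and 4.56 and 3.26 in mCAF-like cells. *Dll1* was read in 0.43% and 2.94% of members against 14.6% and 13.3% of mCAF-like cells. *Lfng*, which modifies Notch, was lower by 1.07 and 1.84, and by 0.72 in tumor 1 without 1 mCAF-like well.

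The promoter of *Hey2* is shown as that of a called Notch target that holds the core of the RBPJ site, the DNA-binding partner of Notch, in the same 250-base window. The core was sought as TGGGAA and, on the other strand, TTCCCA. It was in 4 of 14 promoters of the Notch pathway genes (28.6%), and in 21.6% of all promoters, so it was common everywhere. By gene it was in 3 of 12 (25%), against 24.1% of all genes. *Nrarp* and *Notch3*, the other genes of the list called higher, had 0 cores in their windows, and *Lfng*, called lower, had 2. The *Hey2* window is shown 5′ to 3′ with the core in capitals (chr10:30842784-30843033, minus strand).
Hey2: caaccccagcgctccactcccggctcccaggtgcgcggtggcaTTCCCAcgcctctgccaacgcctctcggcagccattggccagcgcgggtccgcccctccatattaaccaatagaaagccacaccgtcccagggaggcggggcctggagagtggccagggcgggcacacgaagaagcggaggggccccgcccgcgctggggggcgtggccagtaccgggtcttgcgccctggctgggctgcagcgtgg

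Transcription factors are given in 2 lists. Of 16 mural factors, 11 were called higher and 1 lower (median 2.13), and 8 and 2 per ERCC read (median 1.41). *Epas1* (HIF-2alpha), which responds to oxygen, had a mean level of 7.47 and 7.24 against 2.66 and 2.62, and *Nr2f2* (COUP-TFII) of 6.36 and 6.44 against 2.64 and 2.25. *Tbx2*, *Foxs1*, *Foxc2*, *Ebf1*, *Ebf2*, *Mef2c*, *Meox2* and the RNA-binding protein *Rbpms* were also higher, and *Klf2* was lower. Of 14 fibroblast factors, 0 were called higher and 9 lower (median -1.79), among them *Osr1* (log2 differences of -3.82 and -4.50), *Klf4* (-4.74 and -4.32, and -4.97 in tumor 2 without 1 member well) and *Twist2* (-2.91 and -3.04). *Prrx1*, a mesenchymal factor, was not called, at 6.44 and 6.48 in members and 5.14 and 5.37 in mCAF-like cells. *Cox4i2* and *Ndufa4l2*, subunits linked to the respiratory chain under low oxygen, were higher in members by 5.83 ± 0.14 and 3.05 ± 0.24 on the log2 scale (SD, n = 2 tumors). Without 1 mCAF-like well of tumor 2, their differences there were 6.40 in place of 5.74 and 3.52 in place of 2.88. Of the 11 genes of that oxygen-responsive list these and *Epas1* were called higher, *Vegfa* was lower, and *Hif1a*, *Egln1*, *Egln3*, *Bnip3* and *Slc2a1* were not called.

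The basement membrane list held calls in both directions. Of 20 genes, 4 were called higher and 5 lower, against 7.57% and 10.4% of all genes (median -0.27), and 3 and 7 per ERCC read (median -0.99). *Col4a1*, the main network collagen, had a mean level of 9.52 and 9.74 against 7.23 and 7.06, and was read in all members. Its partner *Col4a2* differed by 0.96 and 1.52, just short of the limit. *Col18a1* stood at 7.21 and 7.13 against 3.25 and 3.16, and *Sparcl1*, a matricellular protein of vessels, at 11.1 and 11.1 against 6.04 and 5.54. *Nid2* was higher as well. *Hspg2* (perlecan, -1.76 and -1.71), *Lama2* (-1.31 and -1.27), *Lamc3*, *Col4a5* and *Col4a6* were lower.

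**Figure D5:**
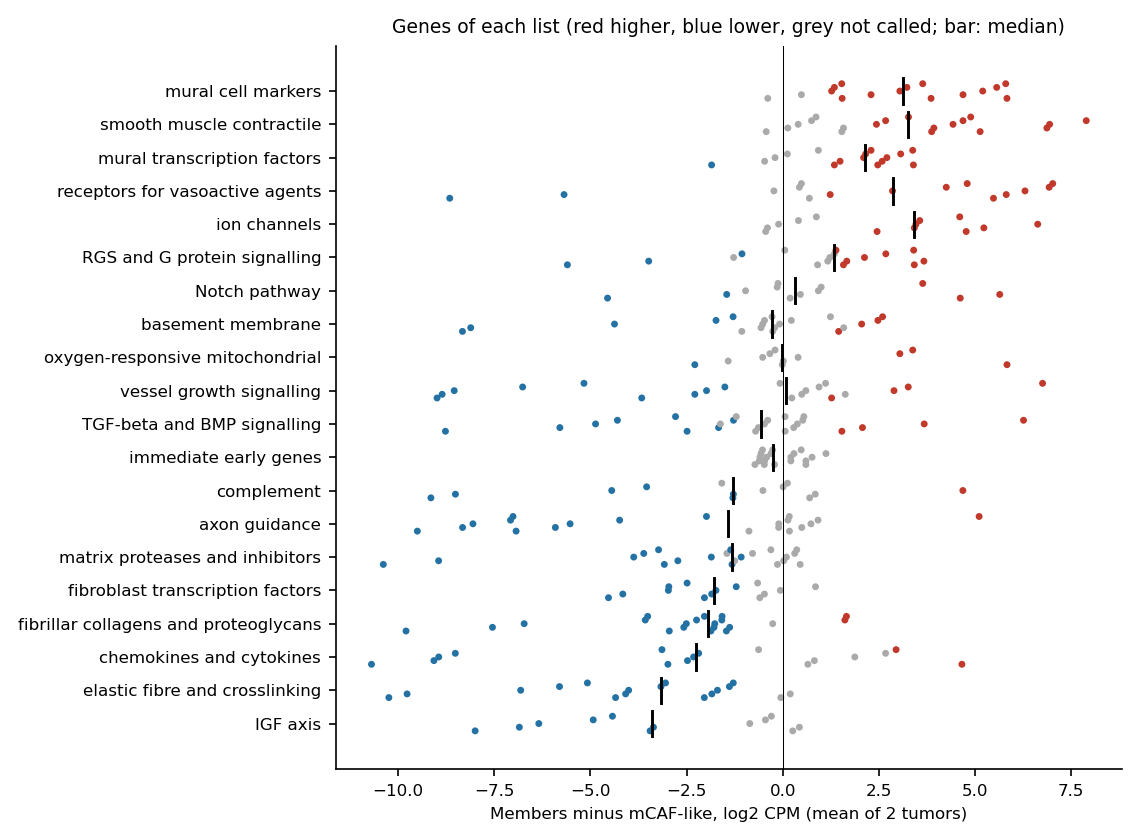
Log2 difference between members and mCAF-like cells (mean of the tumors) for the compared genes of 20 lists, colored by call, with a bar at each list's median. The lists of mural cell, contractile and vessel-tone genes lie to the right of 0 and those of interstitial matrix and the IGF axis to the left, while Notch, basement membrane and immediate early genes straddle it.

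Most interstitial matrix genes were lower in members. Of 20 fibrillar collagens and proteoglycans, 17 were called lower and 2 higher (median -1.95). *Col1a1* had a mean level of 7.40 and 7.43 in members against 10.9 and 10.4, and *Col3a1* of 9.56 and 9.15 against 11.1 and 10.7, so members still made much of both. *Col14a1* (0.13 and 0.15 against 4.07 and 3.42), *Ogn* and *Omd* were near 0 in members. The exceptions were *Col5a3*, higher by 1.53 and 1.79 on the log2 scale, and *Aspn*, asporin, at 9.04 and 8.96 against 6.45 and 4.79. Per ERCC read neither was called. Of 17 elastic fiber and crosslinking genes, 15 were lower and 0 higher (median -3.17). *Mfap4* had 18 and 14 reads in members against 9741 and 10220, and *Efemp1* 4 and 6 against 2273 and 3907. Elastin, *Eln*, and lysyl oxidase, *Lox*, were lower by 4.51 and 5.65 (6.34 in tumor 2 without 1 member well) and by 4.50 and 4.19, and *Loxl2* and *Plod1* were not called.

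Of 21 matrix proteases and inhibitors, 11 were lower and 0 higher (median -1.32). The stromelysin *Mmp3* had 46 and 31 reads in members against 22415 and 25675, with 71.5% of the mCAF-like reads of tumor 2 in 1 well. Without that well the difference of *Mmp3* in tumor 2 was -8.94 in place of -10.7. The collagenase *Mmp13* differed by -10.4 and -7.48 on the log2 scale, with 92.4% of the member reads of tumor 2 in 1 well. Its difference there was -11.1 without this well and -6.89 without the mCAF-like well with most reads. *Mmp2*, a gelatinase, differed by -3.68 and -3.55. *Timp1* and *Timp2*, protease inhibitors, were lower, *Timp3* was not called, and *Serpine2*, protease nexin 1, was high in both classes, at 11.4 and 11.3 in members and 10.7 and 9.56 in mCAF-like cells.

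The 15 genes with the widest difference among the lower calls included *Il33*, an alarmin, with 12 and 13 reads in members against 12875 and 9706 (log2 difference -10.7 ± 0.34, SD, n = 2 tumors). *Pdpn*, podoplanin, had 21 and 13 reads against 11247 and 7125, *Gja1*, connexin 43, 12 and 10 against 5710 and 5294, and *Cilp*, a cartilage layer protein, differed by -10.1 and -9.94 on the log2 scale. *Crabp1*, a retinoic acid-binding protein, had 63 and 42 reads against 40973 and 23949. *Moxd1* (6 and 2 reads), *Thbs4* (14 and 6), *Mme* (9 and 2), *Fcgr2b* (3 and 2) and *Col26a1* (1 and 2) were nearly unread in members. *Dkk2*, a Wnt inhibitor, had 0 and 8 reads in members against 1167 and 3198, at least 9.79 lower on the log2 scale in tumor 1. *Ptgs2* had 0 reads in members, at least 10.4 and 10.1 lower on that scale, but 94.6% of the mCAF-like reads of tumor 1 came from 1 well. For *Efemp1* 56.7% of the mCAF-like reads of tumor 2 came from 1 well. With *Mmp3*, *Mfap4* and *Efemp1*, given above, these were the 15.

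Among 14 CAF marker genes, 2 were called higher (*Pdgfrb* and *Cav1*) and 5 lower (*Pdgfra*, *Pdpn*, *Lrrc15*, *Tnc* and *Postn*), with a median of -0.24. Per ERCC read, 1 was higher and 6 lower (median -0.97). *Pdgfra* had a mean level of 0.14 and 0.08 in members against 5.65 and 4.70. *Fap*, fibroblast activation protein, was not called, at log2 differences of -0.05 and -0.17, and was read in 67.2% of members in each tumor. *S100a4* (FSP1) was read in 41.4% and 34.8% of members, with log2 differences of 0.43 and -1.15. *Vim*, *Sparc*, *Thy1*, *Itgb1* and, as given above, *Acta2* were not called. *Postn* was lower by 1.60 and 1.44 yet stood at 9.32 and 9.52 in members.

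Binding proteins, chemokines, complement and guidance genes held more lower than higher calls. Of 12 IGF axis genes 7 were lower and 0 higher (median -3.41), with *Igfbp2* (-8.70 and -7.30), *Igfbp6* (-6.77 and -6.93), *Igfbp5* (-6.19 and -6.50) and *Igfbp3* (-5.56 and -4.30) furthest apart. For *Igfbp2* 90% of the member reads of tumor 2 came from 1 well, and without the top member well its differences were -9.48 and -10.5. For *Igfbp5* the difference in tumor 2 ran from -7.35 to -5.84 without 1 well. *Igfbp7*, a vessel-associated binding protein, was not called and stood at 12.1 and 11.8 in members and 11.2 and 11.2 in mCAF-like cells. Of 16 chemokines and cytokines, 9 were lower, among them *Cxcl14* (-8.36 and -8.67, and -8.98 and -9.28 without 1 member well) and *Ccl8*, and 2 were higher (*Tslp* and *Ccl19*). *Ccl19* was read in 1.72% and 1.47% of members, with 63% and 85.5% of its reads from 1 well in each tumor. *Cxcl12* was lower by 2.11 and 2.26. Of 13 complement genes 6 were lower and 1 higher (median -1.28), with *C3* at -9.53 and -8.77, and *C1s1* and *Serping1* not called. Of the mCAF-like reads of *C3*, 63.5% in tumor 1 and 44.4% in tumor 2 came from 1 well, and without it the differences were -8.08 and -7.92. Of 20 axon guidance genes 10 were lower and 1, the neurotrophin receptor *Ngfr*, higher (median -1.43), with *Sema3d* (1 and 1 reads against 1961 and 742), *Epha3* and *Slit2* among the lower ones.

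The vessel growth list also held calls in both directions. Of 20 genes, 4 were called higher and 9 lower (median 0.08), and 2 and 9 per ERCC read (median -0.64). *Pdgfa* stood at 6.16 and 5.86 in members against 1.02 and 2.19, and *Flt1*, a VEGF receptor, at 3.20 and 3.57 against 0.48 and 1.05. *Pdgfb* was called higher but read in 8.62% and 6.37% of members. *Vegfa*, *Vegfc*, *Pdgfc*, *Pdgfd*, *Angpt1* and *Angptl4* were lower, as was *Tek*, the angiopoietin receptor, which had 0 reads in members and was read in 19.8% and 6.67% of mCAF-like cells. *Angpt2*, which opposes *Angpt1* at that receptor, was not called, at 3.59 and 2.60 against 3.19 and 1.92. Of 24 TGF-beta and BMP genes, 4 were higher and 8 lower (median -0.55), and 3 and 13 per ERCC read (median -1.28). The coreceptor endoglin, *Eng*, was higher by 1.30 and 1.78 and the ligand *Bmp5* by 4.90 and 7.63 (5.69 in tumor 1 without 1 mCAF-like well). *Tgfbr2* was lower by 2.87 and 2.70, and *Bmp7* had 1 and 0 reads in members against 483 and 785.

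Immediate early genes, which dissociation of tissue can induce, gave no calls. Of 19, 0 were at least 2-fold apart the same way in both tumors (median -0.26), and 6 were lower per ERCC read. *Fos* stood at 9.34 and 8.91 in members and 8.73 and 8.31 in mCAF-like cells, and *Egr1* at 6.84 and 7.38 against 7.84 and 7.27.

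The spread among members was taken over 1896 genes whose mean log2(RPKM + 1) reached 3 in both tumors. The SD over cells, in the tumor where it was smaller, had a median of 2.65. The 10 genes with the largest SD were *BC028528*, *Cyr61*, *Med21*, *Trappc2l*, *Fabp4*, *Churc1*, *Tagln*, *Slirp*, *Id3* and *Snhg3*, at 3.69 to 3.96. Most of these were read in part of the members and high where read. *Cyr61*, a matricellular target of YAP, had a median of 7.38 and 6.40 and was read in 84.1% and 80.4% of members. *Fabp4* was read in 79.7% and 70.6% of members, with medians of 8.14 and 7.43 and 90th percentiles of 10.4 and 10.6. *Id3*, an inhibitor of differentiation that responds to BMP, had medians of 8.33 and 7.59. The 10 genes with the smallest SD, ranked in the tumor where it was larger, were *Rn45s* (ribosomal RNA, SD 0.564 and 0.598), *Col4a1* (0.794 and 0.764), *Sparcl1* (0.804 and 0.826), *Ifitm3*, *Gnas*, *Tmsb4x*, *Eef1a1*, *Rplp0*, *Ddx5* and *Pdgfrb* (0.786 and 0.925). Most of them, such as the elongation factor *Eef1a1* and the ribosomal protein *Rplp0*, are used by cells of many types.

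The members of the tumors differed from each other in few genes. Of 6119 genes compared between the tumors, 97 were at least 2-fold higher in tumor 2 and 73 at least 2-fold lower, and 24 and 8 of these showed the same in mCAF-like cells. *Scgb1b27*, a secretoglobin, was read in 2.16% of members in tumor 1 and 70.1% in tumor 2, and in 1.04% and 75.6% of mCAF-like cells, so its difference was shared by both classes of the plate. *Cd36* was lower in tumor 2 by 2.75 on the log2 scale in members and higher by 3.67 in mCAF-like cells, where 81.2% of the tumor 2 reads came from 1 well. *Smoc2*, a rule gene, was lower in tumor 2 by 4.25, and *3830417A13Rik*, *2610306M01Rik* and *Pigh* by 2.75, 2.17 and 2.09. *Tnfrsf9* had 81 and 6506 reads in members and was read in 0% and 3.33% of mCAF-like cells, so it too was higher in tumor 2 in both classes. Of its tumor 2 reads, 35.6% in members and 76.6% in mCAF-like cells came from 1 well each. *Il10*, *Saa3* and *Cxcl10* were also higher in tumor 2, but 86.4%, 99.6% and 97.3% of their reads there came from 1 well each.

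Cycling vascular CAF-like wells, 29 in tumor 1 and 31 in tumor 2, met the same V rule with C of at least 2. Their median V of 8.94 and 8.52 lay near that of the members, with 5332 and 5317 detected genes and 10.2 and 10.7 endogenous reads per ERCC read, against 5.75 and 6.65 in members. Of the 11713 genes, 742 (6.33%) were at least 2-fold lower in the cycling wells than in the members of both tumors, and 530 at least 2-fold higher. Of the 887 genes higher in members than in mCAF-like cells, 110 (12.4%) were at least 2-fold lower in the cycling wells. Most of these calls were therefore not 2-fold apart from the cycling wells in this way. The same member sums entered both comparisons, so nothing is read from the larger share.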

How the data were processed

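Counts and RPKM values were deposited as 2 tables with 1 column per well (0 columns were left unused). The authors aligned the Smart-seq2 reads to mm10 with STAR 2.3.0 and deposited raw counts per RefSeq gene and ERCC spike-in, without normalization. The authors made the deposited RPKM values with rpkmforgenes. They scale with all reads of the well, ERCC included (r = 0.997 on the log scale). The tables hold 24490 genes and 92 spike-ins, and a value was above 0 in 1 table only in 0.00718% of cases.

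Wells were divided by the rule given above. RPKM served for levels per cell. For differences, counts were summed per class and tumor (47308626 and 40216094 reads in members, 24722545 and 20894119 in mCAF-like cells) and given as log2 CPM (edgeR 4.0.16, TMM, prior count 2, R 4.3.3). Genes needed a mean RPKM of at least 1, and the 18 rule genes were left out. No p-value is given, since the rule used these cells, and SDs are over 2 tumors. Calls, ranks and medians used the values with the prior count, and for a class with 0 reads a bound with a floor of 3 reads is printed in place of the fold. For shares of cells with a read, cells were thinned to 50000 reads (numpy 2.4.6), with exact binomial 95% intervals. Doublets were not called.

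The members and the 30 gene lists were chosen with earlier results of these data known. Named genes were the 15 widest calls each way with a mean RPKM of at least 10 in the higher class in both tumors, up to 4 calls each way per list with its defining members, the sort and CAF marker genes, the 10 most variable genes and 5 each way between the tumors; other list genes are named to complete a count. Alternatives were other limits of the rule, other well filters, other scalings (DESeq2 1.42.0 size factors, library totals, ERCC totals, equal cells), other gene filters, prior counts and folds, and each tumor alone. Coordinates and promoters are those of RefSeq (GRCm38.p6), which gave a position for 491 of 495 genes.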

Additional observations from a re-analysis of the deposited data

How the results depend on the processing

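The number of members was 428 to 439 under the other limits on V and with no filter on wells, 435 with V from *Rgs5*, *Kcnj8* and *Gja4*, 412 without wells with a read of *Epcam*, *Pecam1* or *Ptprc*, 420 with higher minimums of reads and genes, and 496 without a limit on C. The counts of 887 higher and 1217 lower genes moved by over 1.5 times, in at least 1 direction, in the cases that follow. With ERCC totals as library size 537 were higher and 2674 lower, since members hold less endogenous RNA per ERCC read. With no filter beyond 10 reads in all, 2016 were lower, among 15002 genes in place of 11713. A fold of 4 left 435 and 723, and a fold of 1.5 gave 1465 higher. With 1 tumor left out, 1440 to 1531 were higher and 1689 to 1772 lower, since a single tumor then makes the call. All settings but these, including 2 chosen after seeing the data (mCAF-like wells with C below 2, and members with M below 4 against mCAF-like wells with V below 4), gave 766 to 1156 higher and 1025 to 1239 lower. Leaving out the well with most reads of a gene, also chosen after seeing the data, can only end calls and left 734 and 975. Among the 23 lists whose medians were recomputed, no median of at least 1 in size changed sign. The immune, Schwann and adipocyte lists, with 4 genes compared in each, were not among the 23. There the immune median of -1.50 was -2.83 in tumor 1 and 0.50 in tumor 2. The Schwann median of 0.45 was 0.90 in tumor 1, -1.84 in tumor 2 and -0.20 with ERCC totals. Of the smaller medians of the 23 lists, those of the Notch and vessel growth lists turned to -0.40 and -0.64 with ERCC totals. With library totals alone, the endothelial and oxygen-responsive medians turned to 0.17 and 0.23. Without tumor 2 the CAF marker median turned from -0.24 to 0.03, the vessel growth median from 0.08 to -0.24, the endothelial median from -0.07 to 0.12 and the oxygen-responsive median from -0.01 to 0.33. The last of these and the endothelial median were 0.08 and 0.08 without wells with a read of *Epcam*, *Pecam1* or *Ptprc*. Of the medians of the 23 lists under the alternatives, 98 lay within 1 SD between the tumors of the reported median and 40 did not. These include the settings with 1 tumor, from which that SD itself comes, and the SD is wide where the tumors disagree. The count is thus no measure of robustness.

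No paired analysis was possible by well number, because wells that share a number in the 2 plates are unrelated cells. By tumor the comparison was paired throughout. With 1 read sum per class and tumor, sequencing depth limits genes read in few cells, where 1 well can hold most of a sum.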

Other observations

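Of the 98 genes at least 2-fold apart in opposite directions in the tumors, 8 were on the gene lists. They were named for this and not by the rule, from values with the prior count. *Cxcl10* differed by -6.36 in tumor 1 and 7.67 in tumor 2 on the log2 scale, and 99.9% of the mCAF-like reads of tumor 1 and 97.3% of the member reads of tumor 2 came from 1 well each. Of the reads of *Fcer1g* and *Lyz2* in members of tumor 2, 98.4% and 70.4% came from 1 well each. *Bmp2*, read in 17.7% and 13.7% of members, differed by 1.83 and -1.26 with 9.04% and 12.1% of the member reads and 34.4% and 39.8% of the mCAF-like reads in 1 well, and *Ntn4* by 1.67 and -1.31. *Cdh1*, *Elf5* and *Krt19* were read in at most 4.17% of the cells of any class and tumor. *Krt19* had 3 reads in members and 0 in mCAF-like cells of tumor 1, and with the floor of 3 reads its difference there was -1.19, so that the tumors would not lie apart in direction.

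In 24 members a read of *Epcam*, *Pecam1* or *Ptprc* was found, all of *Epcam*.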
